A study of Mus musculus with 3 samples.

Results

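The 9 genes described here encode the transporters that carry bile acids, other organic anions, phospholipids and drugs across the hepatocyte membrane. They were taken by name from GENCODE release M1 and are 9 of 22367 protein-coding genes on NCBI37/mm9. Slc10a1, Slco1a1, Slco1a4 and Slco1b2 take up their substrates from sinusoidal blood at the basolateral membrane. Abcb11, Abcb4, Abcc2 and Abcg2 export into bile at the canalicular membrane, and Abcc3 exports back into blood at the basolateral membrane. Binding of the retinoid X receptor α (RXRα) and the retinoic acid receptor α (RARα) was measured by ChIP-seq in livers of wild type male C57BL/6 mice aged 3 months. The 3 libraries were 1 RXRα ChIP, 1 input, chromatin not enriched by an antibody, and 1 RARα ChIP, and all came from wild type animals, so no mutant or treated group is compared here. How many livers went into a library is not given in the sources used here. With 1 library per antibody no difference has a replicate check, no test between conditions was possible, and the intervals given below cover counting error only.

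Bile acids circulate between liver and intestine. Hepatocytes take them up from portal blood, mainly through the sodium-dependent carrier NTCP (Slc10a1) and the OATP family (Slco genes), and pump them into bile, mainly through the bile salt export pump BSEP (Abcb11). RXRα binds DNA with partner receptors such as RARα, the bile acid receptor FXR, PPARα, LXR, PXR and CAR. Each pair binds a pair of six-base half-sites, and FXR with RXRα is known for an inverted repeat of half-sites spaced by 1 base (IR1). Abcb11 is a textbook target gene of FXR.

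The RXRα and input tracks, which are coverage by extended reads in 32 bp bins, held 9999939 and 9999292 reads, with a mean of 0.603 reads per bin. An RXRα region is a stretch where RXRα was at least 20 times the input, taking for the input the larger of its value in the same bin and its mean, and 42117 such regions were found in the genome. The highest bin of a region is the bin of highest ratio, which need not have the most reads, and the reads given for a region are those of that bin. In many of these bins input was 0 or 1 reads but higher over the surrounding 1 kb. Against input averaged over 1 kb the ratio was then lower, and at many regions of the transporter genes it was below 20. Within 10 kb of the start, the highest bins of all regions of Slco1a4, Slco1b2 and Abcc3 had 10.2 to 14.9. The highest such ratio near the start was 60.8 at Slc10a1, 35.4 at Slco1a1, 169 at Abcb11, 45.1 at Abcb4 and 21.8 at Abcc2. The RARα list held 143280 peaks with scores of 5 to 382, of which 32946 scored above 20, the limit used here for a filtered peak. The list does not say whether its score is a fold over input, and the depth of that library was not read from it. The study reports more uniquely mapped reads for RXRα than its track held, and more for RARα than for RXRα. All 5 hepatocyte marker genes (Alb, Ttr, Apoa1, Apob and Cps1) had a filtered RARα peak, an RXRα region and a co-localized pair within 10 kb of their start. The same 3 counts were 1, 2 and 1 of 4 Kupffer cell markers, 1, 1 and 0 of 4 cholangiocyte markers, 2, 2 and 0 of 4 endothelial markers and 1, 1 and 0 of 4 stellate cell markers. The tissue was whole liver, so signal from hepatocytes and from other liver cells cannot be told apart.

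The sequences under the strongest RXRα region of each transporter gene are given first, since the pair with the highest RXRα ratio shared an arrangement of half-sites. Each was read from NCBI37/mm9 in the 5′ to 3′ direction of the gene's own strand. Capitals mark the half-sites of a repeat with at most 1 of its 12 bases different from the half-site AGGTCA or its variants AGTTCA and GGGTCA, with GGTTCA as the last form searched. The Abcb11 sequence (chr2:69180672-69180820, minus strand) lies upstream of the annotated gene start, and the Abcb4 sequence (chr5:8928588-8928788, plus strand) lies in an intron. Both are shown because each holds a pair of IR1 repeats.
Abcb11: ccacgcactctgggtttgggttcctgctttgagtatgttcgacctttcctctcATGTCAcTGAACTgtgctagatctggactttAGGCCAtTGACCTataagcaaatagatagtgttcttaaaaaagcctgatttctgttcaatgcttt
Abcb4: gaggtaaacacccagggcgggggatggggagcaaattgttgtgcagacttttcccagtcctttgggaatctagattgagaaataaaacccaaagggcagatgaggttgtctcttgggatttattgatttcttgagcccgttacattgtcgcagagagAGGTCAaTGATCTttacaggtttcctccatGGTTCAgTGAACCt

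The IR1 repeats of Abcb11 lay at chr2:69180755-69180767 and chr2:69180724-69180736, which is -96 to -84 bp and -65 to -53 bp from the gene start, and each had 1 base different from the half-sites searched. Those of Abcb4 lay at chr5:8928745-8928757, with 1 base different, and at chr5:8928775-8928787, with 0 bases different. Among all 42117 RXRα regions, 3.49% held an IR1 on either strand within 100 bp on each side of the middle of the highest bin, and 32 regions (0.076%) held at least 2 of them. In windows of the same length 500 bp away the share with an IR1 was 0.61%. Of the 245 regions with a ratio of at least 200, 14.7% held an IR1 and 6 held at least 2. The regions of Abcb11 and Abcb4 are among these 6, and they ranked 3 and 4 by ratio among the 32. The limit of 200 was not among those set beforehand, and both of their ratios lie above it. The count of at least 2 was looked at after the repeats of these genes had been seen, so it is a description of them.

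The other 7 genes are shown by 81 bp at the highest bin of their strongest region, to allow a comparison with the IR1 pairs. They are Slc10a1 (chr12:82077096-82077176, minus strand), Slco1a1 (chr6:141889096-141889176, minus strand), Slco1a4 (chr6:141795464-141795544, minus strand), Slco1b2 (chr6:141587400-141587480, plus strand), Abcc2 (chr19:43871784-43871864, plus strand), Abcg2 (chr6:58562792-58562872, plus strand) and Abcc3 (chr11:94223592-94223672, minus strand). Within 100 bp on each side of the bin only Slco1a4 had a repeat of the kinds searched, a direct repeat spaced by 5 bases (DR5), which reads on the strand opposite to the gene.
Slc10a1: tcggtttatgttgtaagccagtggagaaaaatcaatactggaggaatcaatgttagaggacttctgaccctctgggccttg
Slco1a1: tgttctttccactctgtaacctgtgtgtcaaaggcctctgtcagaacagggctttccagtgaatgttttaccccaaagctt
Slco1a4: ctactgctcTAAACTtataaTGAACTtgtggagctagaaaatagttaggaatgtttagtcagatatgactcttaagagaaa
Slco1b2: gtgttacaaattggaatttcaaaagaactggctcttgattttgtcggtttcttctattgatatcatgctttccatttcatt
Abcc2: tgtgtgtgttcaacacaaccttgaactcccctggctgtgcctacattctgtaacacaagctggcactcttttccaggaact
Abcg2: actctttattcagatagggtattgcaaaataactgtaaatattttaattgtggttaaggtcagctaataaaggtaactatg
Abcc3: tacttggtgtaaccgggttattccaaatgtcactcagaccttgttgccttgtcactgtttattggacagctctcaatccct

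Direct repeats spaced by 0 to 5 bases, inverted repeats spaced by 0 or 1 base and everted repeats spaced by 6 or 8 bases were searched on both strands, and 1 stretch can count for several kinds. At least 1 of them was found in 19 of the 52 RXRα regions of the 9 genes (36.5%), against 33.1% of all regions and 12.3% of windows 500 bp away. The IR1 was found in 4 of the 52, the regions of Abcb11 and Abcb4 above and, in Slco1b2, those at -55 bp and at 13385 bp, each with 1 base different. A window without a match says only that these letters were not in it.

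NTCP, encoded by Slc10a1 (14.8 kb on chromosome 12, minus strand), had the most filtered RARα peaks near the start among the uptake genes. Filtered RARα peaks numbered 5 within 10 kb of its start, with scores of 36 at 26 bp, 43 at 1636 bp and 21 at 4266, 5281 and 9456 bp. None of them was co-localized with an RXRα region. The 4 RXRα regions lay elsewhere, at -8565, -8069, -5125 and 7643 bp, and the strongest, at -8069 bp, held 155 RXRα reads against 2 input reads in its highest bin, a ratio of 77.5. Coverage within that region was higher still, with a mean over 3 bins of up to 182 reads against 3.33 of input. The region at 7643 bp, in an intron, was the strongest inside the gene, with a ratio of 68.0. Against the input averaged over 1 kb these ratios were 60.8 at -8069 bp and 13.7 at 7643 bp. A RARα peak did cover the stronger region at -8069 bp, but its score was exactly 20, so the peak fell just outside the limit. No RARα peak of any score touched the region at 7643 bp. Under the RARα peak at the start RXRα reached 65 reads against 7 of input, a ratio of 9.29, and the bin of highest ratio had 57 against 3, a ratio of 19, so no region was called there. Over the 20 kb window there were 785 RXRα and 200 input reads, a ratio of 3.92 (95% interval 3.36 to 4.61), higher than at 95.8% of all genes.

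OATP1A1, the product of Slco1a1 (39.7 kb on chromosome 6, minus strand), takes up bile salts and steroid conjugates. Its 3 filtered RARα peaks scored 24 at -922 bp, 31 at 153 bp and 31 at 2703 bp. The first was co-localized with an RXRα region at -821 bp, where 35 RXRα reads stood against 0 of input (ratio 58.1). Stronger still was an RXRα region with no RARα peak at 6347 bp in an intron, with 40 reads against 0 and a ratio of 66.4. A further region, at 907 bp, had a ratio of 21.6. The window held 327 RXRα and 197 input reads, a ratio of 1.66 (95% interval 1.39 to 1.99).

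Slco1a4, which encodes OATP1A4, had 0 filtered RARα peaks and was the uptake gene with the fewest binding calls. The single RARα peak within 10 kb scored 12, at -8075 bp, and none lay over its 50.8 kb. A single RXRα region passed, at 9216 bp, with 21 reads against 0 of input and a ratio of 34.8. RXRα coverage of at least 20 reads stood at 3 further places without passing the ratio. These were 40 reads against 2 of input at 640 bp, 40 against 3 at -1728 bp and 86 against 5 at -9984 bp, and the ratios of the last pair were 13.3 and 17.2. At 640 bp the ratio was exactly 20, which the scaling of the tracks put below the limit. Beside this low region count stood a local input of 2.81 to 3.55 reads per bin over 1 kb at those places. The window ratio was 1.72 (95% interval 1.44 to 2.07), from 331 RXRα and 192 input reads.

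OATP1B2, encoded by Slco1b2 (57.1 kb on chromosome 6, plus strand), is the liver-restricted carrier of bile acids, bilirubin conjugates and many drugs. The only filtered RARα peak within 10 kb scored 61, the highest of the uptake genes, and its summit lay 26 bp inside the gene. It was co-localized with an RXRα region at -55 bp that had 31 reads against 1 of input (ratio 31.0). Further regions lay at 3545 bp (ratio 21.6) and 9385 bp (ratio 39.8). The window ratio of 1.71 (95% interval 1.42 to 2.06, 320 against 187 reads) was close to those of Slco1a1 and Slco1a4, whose intervals overlapped it. Inside the gene, 6 more filtered RARα peaks scored 21 to 43, and the highest of them, at 11326 bp, was co-localized with an RXRα region of 74 reads against 2 (ratio 37.0) that held a direct repeat spaced by 2 bases with 0 bases different. The 3 Slco genes lie in 1 cluster on chromosome 6, but their 20 kb windows share no base.

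**Figure D1:**
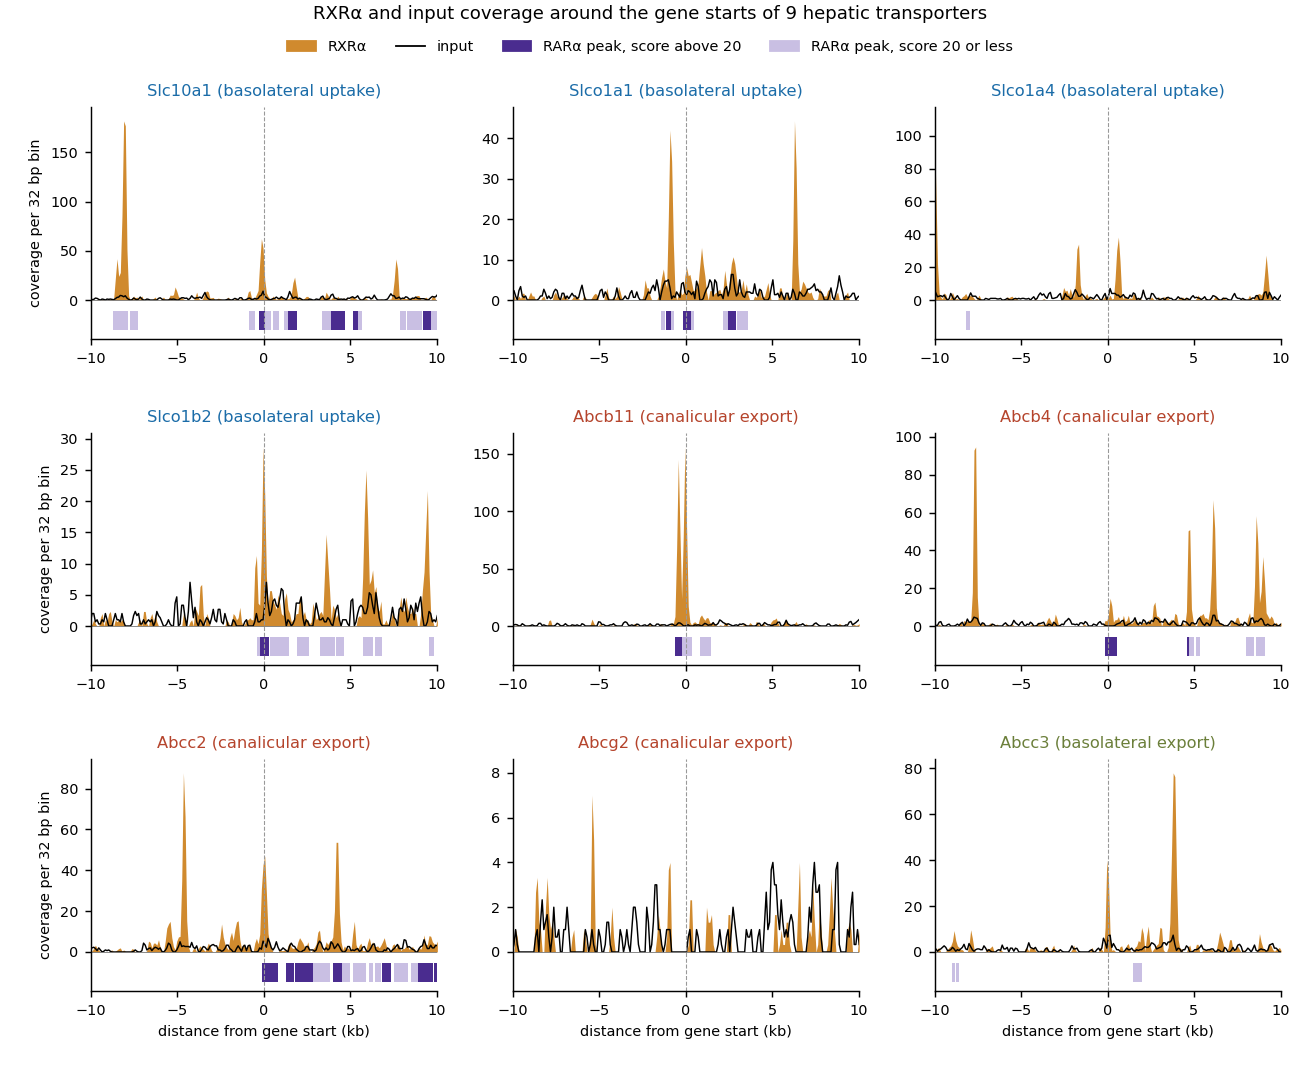
Mean coverage by extended reads per 32 bp bin, averaged over 3 bins (y axis, a separate scale in each panel), of RXRα (filled) and input (line) within 10 kb of each gene start (x axis, distance in kb along the gene's strand), with RARα peaks as boxes below. RXRα stood in a double peak at the Abcb11 start and about 8 kb upstream of Slc10a1, while Abcg2, on an axis that ends near 8, had no region and no RARα peak of any score.

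BSEP, the rate-limiting pump for bile salts, had the RXRα region of highest ratio to input near a start among the 9 genes. The region, 736 bp wide and centred at -241 bp of Abcb11 (104.0 kb on chromosome 2, minus strand), had 164 RXRα reads (95% interval 140 to 191) against 0 of input in the bin at -49 bp. That is a ratio of 272 against the mean input, higher than in 99.8% of all RXRα regions, and it remained 169 against the input averaged over 1 kb. The bin holds the IR1 nearer to the start, the second printed in capitals above. RARα peaks lay at the same place with scores near the limit. The peak whose summit lay at -74 bp, over the highest RXRα bin, scored 20 and was not counted. The 1 filtered peak, at -404 bp, scored 22 and was co-localized, with RXRα at 40.7 times the input over its width. Inside the gene lay RXRα regions at 31023 bp (20 reads against 0, ratio 33.2) and 53359 bp (21 against 0, ratio 34.8), neither with a RARα peak, and the highest RARα score over the gene was 17, at 47866 bp. The window held 526 RXRα and 124 input reads, a ratio of 4.25 (95% interval 3.48 to 5.2), and the whole gene had a ratio of 1.03 (95% interval 0.914 to 1.16).

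MDR2, encoded by Abcb4 (65.5 kb on chromosome 5, plus strand), moves phosphatidylcholine into bile, where it forms micelles with bile salts. It had 6 RXRα regions within 10 kb, the most of the 9 genes, and 9 over the gene. Filtered RARα peaks at 188 bp (score 38) and 4728 bp (score 24) were both co-localized, with RXRα ratios of 24.9 and 106. At -7685 bp RXRα had 100 reads against 3 of input with no RARα peak. The strongest site lay far inside the gene, at 34971 bp, with 263 RXRα reads (95% interval 232 to 297) against 1 of input. Its ratio of 263 exceeded that in 99.8% of all regions, and a RARα peak of score 35 covered it. RXRα over that RARα peak was 138 times the input. All 4 filtered RARα peaks over the gene were co-localized. The IR1 pair of Abcb4 lies 63 and 93 bp from the middle of its highest bin. Reads over the whole gene were 1372 for RXRα and 428 for input, a ratio of 3.2 (95% interval 2.87 to 3.58).

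MRP2, encoded by Abcc2 (55.8 kb on chromosome 19, plus strand), exports bilirubin glucuronides and glutathione conjugates. RARα peaks of any score, most of them at 20 or less, lay over 62.3% of the gene length. There were 9 filtered RARα peaks within 10 kb and 20 over the gene, with the highest score, 88, at 143 bp and further high scores of 68 at 10533 bp and 65 at 15123 bp. The 3 highest peaks were all co-localized with RXRα regions, whose ratios were 45.0, 74.0 and 105. Against the input averaged over 1 kb the ratios were 15.7, 16.3 and 78.8. The last of these regions, at 15238 bp, held 211 RXRα reads against 2 of input and was the strongest of the gene. In all, 6 of the 20 filtered RARα peaks over the gene were co-localized. RXRα regions at -4634 bp (ratio 52.0) and -2442 bp (ratio 24.9) had no RARα peak. The window ratio was 3.11 (95% interval 2.66 to 3.64) from 672 and 216 reads, and the gene ratio was 3.32 (95% interval 3.03 to 3.64) from 2008 and 605 reads. Toward its 3′ end the nearest gene start was that of Gm10768, so peaks there cannot be assigned to Abcc2 by distance.

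BCRP, the exporter of sulfated conjugates and many drugs encoded by Abcg2 (108.0 kb on chromosome 6, plus strand), was the exception among the canalicular genes. Within 10 kb of its annotated start there were 0 RARα peaks of any score and 0 RXRα regions, and the highest RXRα ratio of a bin was 11.6. The window held 62 RXRα reads against 87 of input, a ratio of 0.715 (95% interval 0.506 to 0.998), the lowest of the 9 genes. Around transcript starts at 11452 and 12148 bp the ratios were 0.654 and 0.634. Binding was instead found inside the annotated gene, where other transcripts begin at 56037 and 56041 bp. A RARα peak of score 48 had its summit at 56058 bp and was co-localized with an RXRα region of 13 reads against 0 (ratio 21.6). Around the transcript start at 56037 bp the ratio was 1.56 (95% interval 1.25 to 1.97). The other 5 RXRα regions over the gene had ratios of 22.0 to 39.0 (the highest at 28315 bp) and no RARα peak.

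MRP3, encoded by Abcc3 (49.7 kb on chromosome 11, minus strand), returns glucuronides and bile salts to blood. It had RXRα regions but 0 filtered RARα peaks, the highest RARα score within 10 kb being 11, at -8919 bp, and the highest over the gene 10. RXRα regions lay at -57 bp, with 43 reads against 1 (ratio 43.0), and at 3927 bp, with 34 against 0 (ratio 56.4). Further in, at 30647 bp, 69 reads stood against 0, a ratio of 114 that exceeded 95.7% of all regions. Against the input averaged over 1 kb that ratio was 23.2. None of its 6 regions was touched by a RARα peak of any score. The window ratio was 2.27 (95% interval 1.89 to 2.74), from 386 RXRα and 170 input reads.

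**Figure D2:**
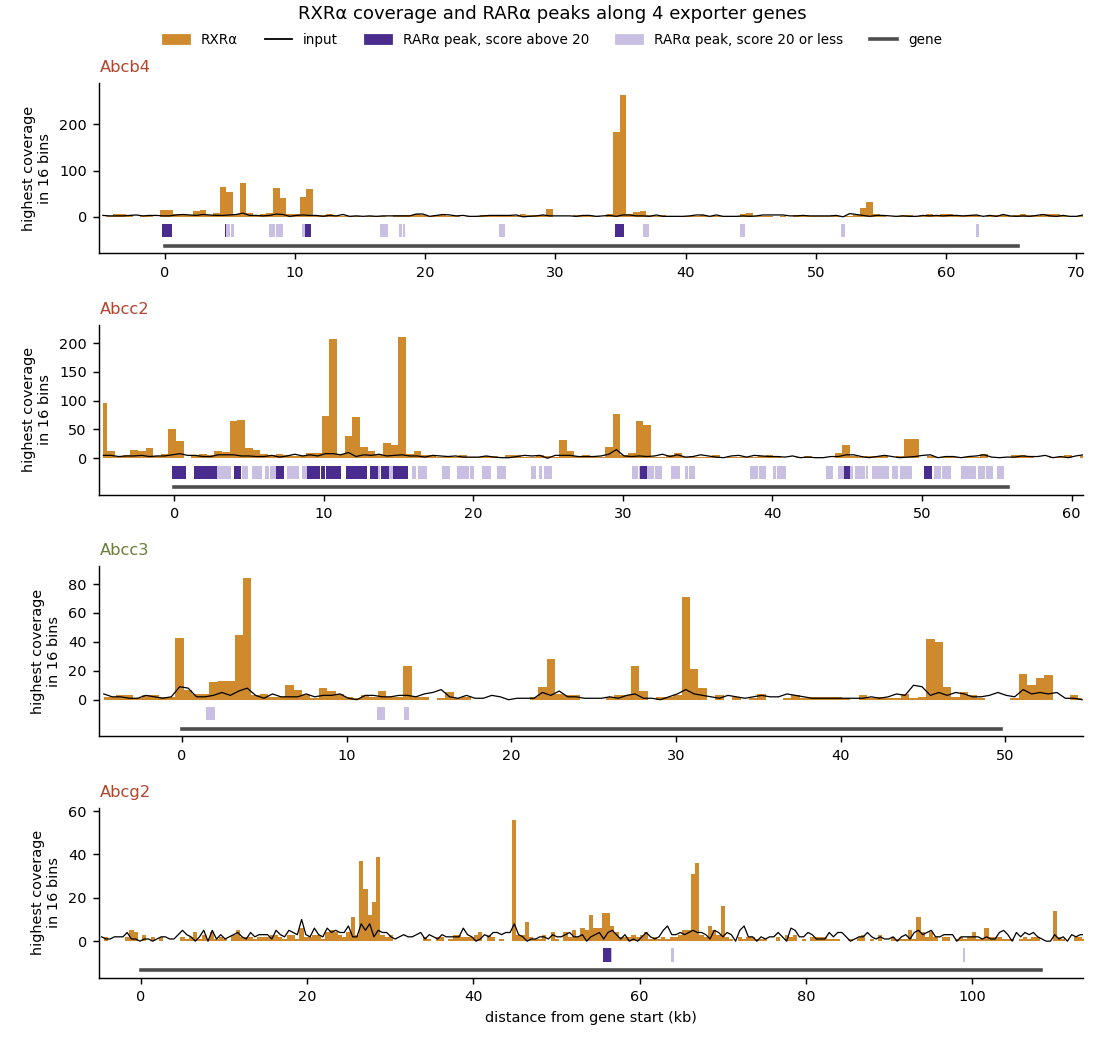
Highest coverage by extended reads in steps of 16 bins of 32 bp (y axis, a separate scale per gene) of RXRα (bars) and input (line) along Abcb4, Abcc2, Abcc3 and Abcg2 with 5 kb on each side (x axis, distance from the gene start in kb), with RARα peaks over the gene as boxes and the gene as a bar. The highest RXRα signal of Abcb4 stood near 35 kb, Abcc2 carried RARα peaks of score above 20 mostly in its first 16 kb, and Abcc3 and Abcg2 had RXRα signal mostly without RARα peaks.

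Counted over the 9 genes, 6 had a filtered RARα peak within 10 kb of the start, where 52.2% of all protein-coding genes had one. RXRα regions were near 8 of the 9 starts, against 39.8% of all genes, and a co-localized pair near 5 of 9, against 23.5%. Over the annotated gene, 6 of 9 had a filtered RARα peak (42.5% of all genes), 9 of 9 had an RXRα region (33.9%) and 4 of 9 had a co-localized pair (17.7%). The RARα count near the start was thus close to the background share, and the RXRα count stood further above it. The transporter genes are long (14.8 to 108.0 kb), and a longer gene has more room for a region, so regions per 10 kb of gene were also taken. They ranged from 0.192 in Abcb11 to 1.61 in Abcc2, with a median of 0.875 against 0.0 over all genes. Since only 33.9% of all genes held a region, the median over all of them is 0.0. A median among genes of like length was not taken, so this comparison is not adjusted for length. The part of gene length in these counts was not tested.

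Basolateral uptake and canalicular export genes overlapped in all measures near the start. The 4 uptake genes had 9 filtered RARα peaks, 11 RXRα regions and 2 co-localized pairs within 10 kb, and the 4 canalicular genes had 12, 12 and 5. At least 1 RARα peak was present at 3 of 4 genes in both classes. The co-localized pairs were at Slco1a1 and Slco1b2 among uptake genes, and at Abcb11, Abcb4 and Abcc2 among canalicular genes. Against input averaged over 1 kb the RXRα ratios of the uptake pairs were 14.5 at Slco1a1 and 13.5 at Slco1b2. Those of the canalicular pairs were 169 at Abcb11, 24.9 and 45.1 at Abcb4, and 15.7 and 14.0 at Abcc2. Abcc2 alone supplied 9 of the 12 canalicular RARα peaks. Without it the canalicular count was 6 below the uptake count in place of 3 above, and for RXRα regions it was 4 below in place of 1 above. Without Slc10a1 on the uptake side the canalicular counts were 8 and 5 above. When all RARα peaks of any score were counted, the uptake genes had 18 more than the canalicular genes.

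The ratio of RXRα to input in the 20 kb window had a median of 1.71 in uptake genes (1.66 to 3.92) and of 3.44 in canalicular genes (0.715 to 4.25), against 1.09 over all genes. The lowest and the highest value of the 9 were both canalicular. Slc10a1, Abcb11 and Abcb4 had intervals that overlapped each other and lay above those of Slco1a1, Slco1a4, Slco1b2 and Abcc3, whereas Abcc2 shared part of the range of Slc10a1, Abcb11, Abcb4 and Abcc3. The difference of the class medians, 1.72, shrank to 0.0504 in windows of 1 kb and turned to -0.0252 in windows of 25 kb on each side. With 4 genes in a class, and genes that are no replicates of a condition, this is a description of these genes.

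**Figure D3:**
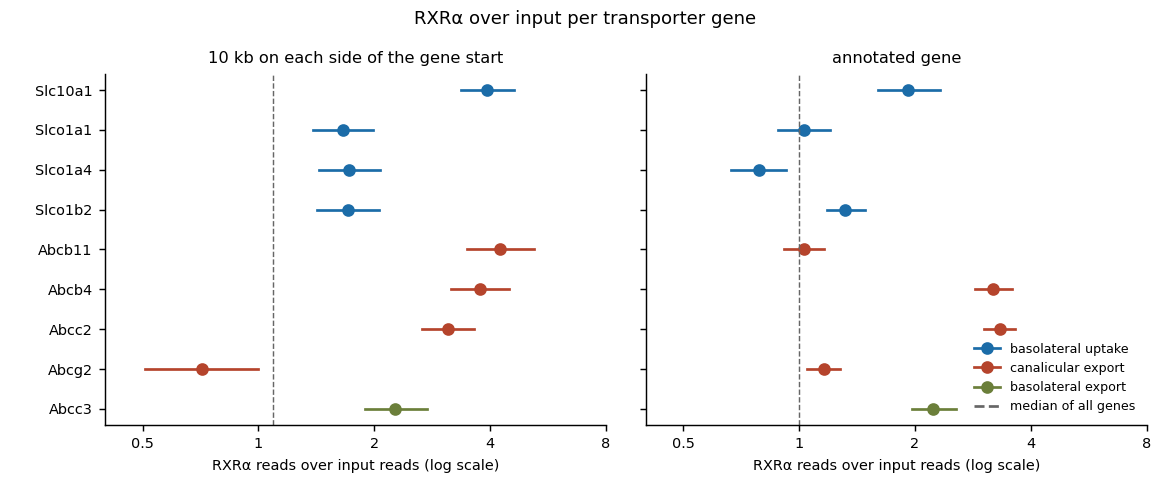
RXRα reads divided by input reads (x axis, log scale) for each gene, within 10 kb of the gene start (left) and over the annotated gene (right), with lines for exact 95% intervals that cover counting error only and a dashed line for the median of all protein-coding genes. Near the start Abcg2 alone lay below the median of all genes, and over the gene Abcb4 and Abcc2 were highest at 3.2 and 3.32.

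Over the annotated gene the ratio had a median of 1.18 in uptake genes (0.785 to 1.92) and of 2.18 in canalicular genes (1.03 to 3.32), with a median of 1.0 over all genes. Abcb4 and Abcc2 were higher than 92.5% and 93.0% of all genes, and Abcc3, at 2.23 (95% interval 1.96 to 2.55), than 84.2%. Slco1a4 was the lowest at 0.785 (95% interval 0.666 to 0.923). Abcb11 and Slco1a1, both at 1.03, had as many RXRα reads as input reads within error. Most of the Abcb11 region centred at -241 bp, and the Slco1a1 region at -821 bp, lay outside the annotated gene. These parts did not enter the ratio, whereas the Slco1a1 regions at 907 and 6347 bp did. Leaving out Abcc2 brought the difference between the class medians from 1.01 to -0.0162, and leaving out Abcg2 brought it to 2.03.

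RARα peaks of any score covered 64.9% of the length of Slc10a1, 62.3% of Abcc2, 46.1% of Slco1b2 and 20.3% of Slco1a1, against a median of 1.84% over all genes. The first pair stood above 98.3% and 98.2% of genes, but below all 5 hepatocyte markers, whose cover was 91.5% (Ttr) to 98.6% (Apoa1). Among the transporter genes Abcb4 followed with 10.5%, whereas Abcc3 (2.64%), Abcb11 (2.34%), Abcg2 (1.61%) and Slco1a4 (0.0%) were near the median or below it. Most of this cover came from low scores: Slco1b2 had 84 peaks over its body of which 7 passed the score limit, Abcc2 100 of which 20 passed, and Slc10a1 32 of which 5 passed. Input was also above the median of all genes at these genes. Per bin it averaged 1.91 over Slc10a1, 1.73 over Abcc2, 1.52 over Slco1b2 and 1.36 over Slco1a1, against 0.615 for the median gene. Abcb11, with 0.856, was the lowest of the 9. Among the other 5 genes input did not follow the cover: it was 1.05 over Abcb4, with a cover of 10.5%, and 1.11 over Abcg2, with 1.61%. The part of input in the RARα peaks was not tested.

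**Figure D4:**
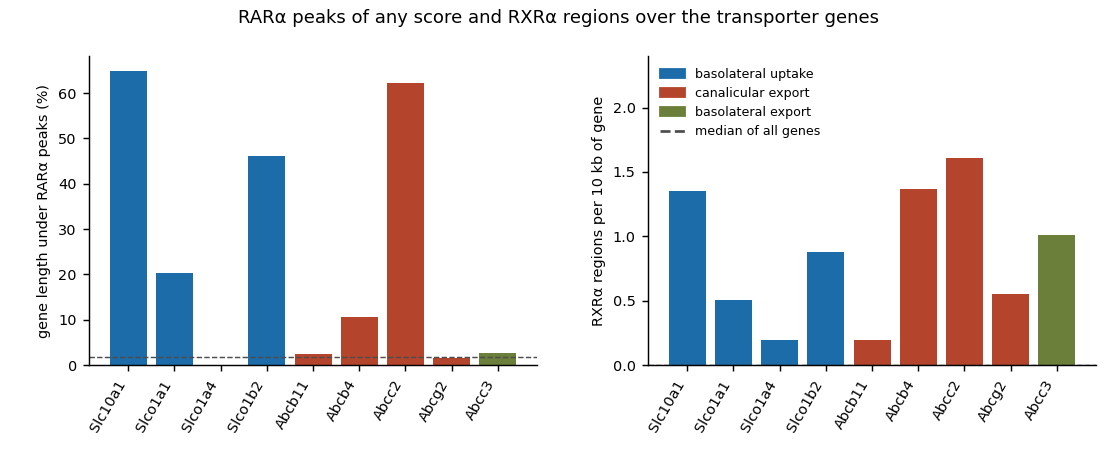
Share of the annotated gene under RARα peaks of any score (left, %) and RXRα regions per 10 kb of gene (right), as bars from 0 for the 9 genes, with a dashed line for the median of all protein-coding genes, which is 0.0 on the right. Slc10a1, Abcc2 and Slco1b2 were high on the left, and Abcb4 joined Abcc2 and Slc10a1 on the right.

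The order of the genes by RARα score differed from that by RXRα ratio. By the highest RARα score within 10 kb the order was Abcc2 (88), Slco1b2 (61), Slc10a1 (43), Abcb4 (38), Slco1a1 (31), Abcb11 (22), Slco1a4 (12), Abcc3 (11) and Abcg2 (0, no peak). Their order by the highest RXRα ratio of a region within 10 kb was Abcb11 (272), Abcb4 (106), Slc10a1 (77.5), Slco1a1 (66.4), Abcc3 (56.4), Abcc2 (52.0), Slco1b2 (39.8), Slco1a4 (34.8) and Abcg2 (0.0, no region within 10 kb). Over the gene, where Abcg2 had 6 regions, the highest ratios were 263 in Abcb4, 114 in Abcc3 and 105 in Abcc2. Abcb11 exceeded 99.9% of all genes by the RXRα ratio and 48.8% by the RARα score. The limit of 20 on the score fell in a dense part of the list, with 5 peaks of these genes at exactly 20 and 4 at 21 within 10 kb. Just inside the limit for RXRα regions the lowest ratio was 21.6.

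**Figure D5:**
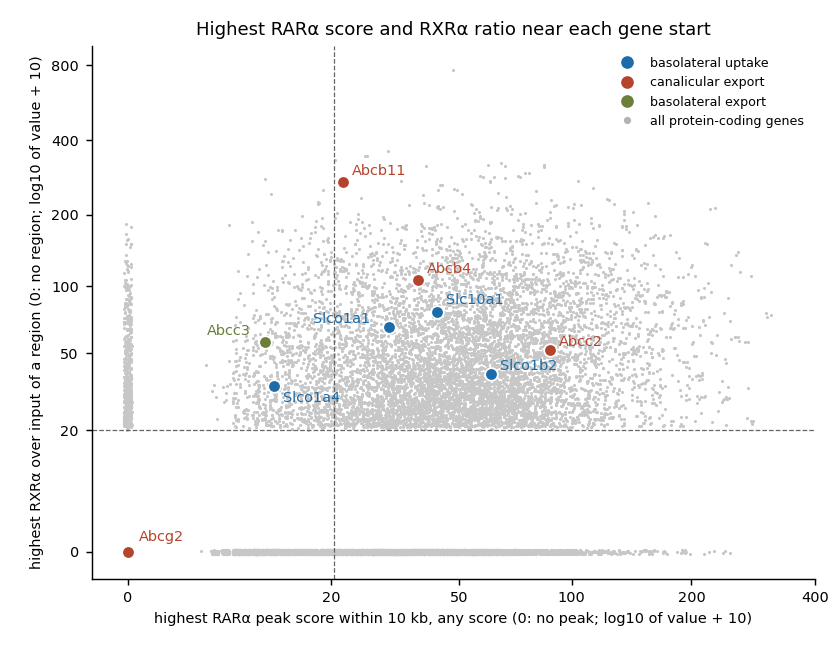
Highest RARα peak score of any score (x axis) and highest RXRα over input ratio of a region (y axis) within 10 kb of each gene start, both as log10 of the value plus 10, for the 9 genes (large points) and all 22367 protein-coding genes (small points), with dashed lines at the limits of 20. Abcb11 stood high in RXRα just right of the score limit, Abcc2 and Slco1b2 were furthest right, and Abcg2 lay at 0 on both axes.

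Of 16 further hepatic transporter genes listed by class, 8 had a filtered RARα peak, 11 an RXRα region and 6 a co-localized pair within 10 kb, where the shares over all genes were 52.2%, 39.8% and 23.5%, so the RARα count was no more than the background. Among the 5 uptake genes the counts were 3, 3 and 2, and Slc22a7, the organic anion carrier OAT2, had the highest RARα score, 37. Slco1a5 and Slco1a6, neighbours of the Slco genes above, had 0 RARα peaks and 0 RXRα regions near their start, with window ratios of 0.706 and 0.792. Among the 5 canalicular genes the counts were 3, 4 and 3, led by Abcg5, a subunit of the sterol exporter, with a ratio of 118. Abcg5 and Slc47a1, the drug exporter MATE1, shared the highest RARα score, 35. The 6 genes of basolateral export had 2, 4 and 1. Abcc4 (MRP4), like Abcc3, had an RXRα region, with a ratio of 192, and 0 filtered RARα peaks (highest score 18), whereas Abcc6 had 4 filtered RARα peaks with a highest score of 61. Of the bile acid exporter OSTα-OSTβ, Ostb had a RARα peak of score 40 and an RXRα region of ratio 78.0, and Osta had neither.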

How the data were processed

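The authors made the RXRα, input and RARα libraries from mouse liver chromatin, aligned reads with Bowtie and called peaks with MACS, with CASAVA 1.4 named in the submitters' processing notes. They deposited RXRα and input as a signal, whole-number coverage by extended reads in 32 bp bins, both fixed near the same depth, and RARα as a list of peaks with a score and a false discovery rate in percent, which was not used here. The study's methods name mm10 for alignment, and the deposited headers name mm9, which was used for coordinates, genes (GENCODE M1) and sequence (NCBI37). Each antibody had 1 library.

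Tracks were scaled to the same mean. Bins with RXRα at least 20 times the larger of local and mean input were joined within 200 bp into regions. The limits on score, distance (10 kb) and overlap (25%) follow the study's methods, and taking the overlap as a share of the narrower interval was a choice made here. Window and gene ratios were computed from read equivalents (signal divided by 5 bins per read), with exact Clopper-Pearson 95% intervals. Intervals of single bins are exact Poisson intervals. They cover counting error only, since reads were not told apart from PCR copies. Steps were tested on simulated data and run in Python (version 3.11.15), using scipy (1.17.1) for intervals, pysam (0.24.0) for sequence, and numpy (2.4.6) with pandas (2.3.3) for tables. For each of the 9 genes the RARα peak of highest score and the RXRα region of highest ratio near the start and over the gene are named, and for other transporters the highest by score and by ratio in each class, except for a result that is not reported here. Genes, lists and limits were chosen with earlier results of these data known. Other peaks and regions, the places with at least 20 RXRα reads but no region, and the count of at least 2 IR1 were chosen after seeing the data. Alternatives varied the score, ratio, distance, overlap, joining, merging, input, transcript start, nearest gene, gene body and bases different. Those on unscaled tracks, input averaged over 1 kb, a score of at least 20 and leaving out Abcc2, Abcg2 or Slc10a1 were chosen after seeing the data.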

Additional observations from a re-analysis of the deposited data

How the results depend on the processing

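No paired analysis was possible because each antibody had 1 library and the labels give no replicate numbers, and no library could be left out. The difference between classes, canalicular minus uptake, was the value that changed most. For filtered RARα peaks (3 as reported) it was -18 with no score limit, -1 with scores above 30, 0 with scores above 50 or within 1 kb, 5 within 25 kb, -3 with peaks 10 bp apart merged, -6 without Abcc2 and 8 without Slc10a1. For RXRα regions (1 as reported) it was 2, 4 and -1 at 5, 10 and 15 times input, -2 against mean input alone, 3 with bins joined within 64 bp or within 5 kb of the start, 0 within 1 kb or with unscaled tracks, -4 within 25 kb, 2 from any transcript start, 6 with input averaged over 1 kb, -4 without Abcc2 and 5 without Slc10a1. For co-localized peaks (3 as reported) it was 0 with scores above 50, and 1 at 15 times input, against mean input alone, within 1 kb or without Abcc2. The difference in median window ratio (1.72) was 0.0504 within 1 kb and -0.0252 within 25 kb, and that in median gene ratio (1.01) was 0.627 as a mean of bin ratios, -0.0162 without Abcc2 and 2.03 without Abcg2. The cause of these changes was not tested. Of the 9 genes, 2 kept a RARα peak at scores above 50, and 3 and 2 a co-localized peak at scores above 30 and 50. The median window ratio of the 9 (2.27) was 3.44 within 1 kb. Regions with a repeat fell from 19 to 2 with no base different. Of the values that answer a comparison, 75 moved by less than the limit set for a change, 26 moved by more and 10 reversed. Depth limited single bins: a region of ratio 21.6 rests on 13 reads against 0.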

Other observations

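The 32 RXRα regions with at least 2 IR1 repeats within 100 bp of the highest bin are a short list on which regions of Abcb11 and Abcb4, 2 of the 9 transporter genes, ranked 3 and 4 by RXRα ratio (272 and 263). Rank 1 had a ratio of 353 and lay -818 bp from the start of Fcna, which encodes ficolin A, and rank 2, with 287, lay 70675 bp from the start of Myom1, the nearest start. Bhlhe40, a transcription factor of the circadian clock, had such a region at -1951 bp with a ratio of 155, and Osgin1 had one at -1624 bp with a ratio of 113. These genes were named after their values were seen, and the rest of the list was not examined.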
